A study of Mus musculus with 4 samples.

Results

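The DNA transposons of the mouse genome were represented by 204 rows of a count table, each holding the reads of 1 named element summed over its copies in the genome. They were taken as the rows whose label gives the element, its family and its class, with the class exactly DNA. They are 204 of 1153 rows of transposable elements and of 56488 rows in all, the other 55335 being genes. By the family in the label, 120 rows belong to the hAT group, 61 to the TcMar group and 23 to other families. A further 21 rows carry the uncertain class DNA? and were kept out.

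RNA was sequenced from the mouse embryonic stem cell (ESC) line AB2.2, with 2 control libraries and 2 libraries of cells given 50 mM lactate, kept for 24 h. Both groups grew on a feeder layer of mouse embryonic fibroblasts (MEFs) in medium with serum (fetal bovine, at 15%) and leukemia inhibitory factor at 1000 U/ml, which also held 3 µM CHIR99021, which inhibits the kinase GSK3, and 1 µM PD0325901, which inhibits the kinase MEK. The labels name no salt or acid form of the lactate and no osmotic or vehicle control, and all libraries come from 1 line. Nothing in the labels says that libraries of a group came from separate cultures, so the p-values measure the spread between these libraries, which may be technical. The question is whether lactate moved the RNA read from DNA transposons and from which families.

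DNA transposons move by cut and paste. Their own enzyme, the transposase, binds inverted repeats at the ends of an element, cuts it out and inserts it elsewhere, and no RNA copy is needed, unlike for LINE, SINE and LTR elements. In the mouse these elements are old and no longer known to move. Most copies are short internally deleted forms without a transposase gene, and many lie inside introns and untranslated ends of genes, so that RNA read from a copy can be part of a gene's transcript. The table gives reads for each element name and not for each copy, so the source of a read could not be traced to a copy, a strand or a gene.

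The hAT families hAT-Charlie, hAT-Tip100, hAT-Blackjack and hAT are named after the hobo, Activator and Tam3 elements. The TcMar families, relatives of Tc1 and mariner, are TcMar-Tigger, TcMar-Tc2, TcMar-Mariner, TcMar-Pogo and TcMar. The other families are PiggyBac, MULE-MuDR, MuDR and a family called only DNA. Several host genes descend from DNA transposons, and they are described after the elements. Some are of kinds named here (hAT, pogo and piggyBac), and others of kinds with no family here (P element, Harbinger and Transib).

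Gene counts per library were between 18067562 and 19077885, and all element rows together took between 7.36% and 9.41% of all counts. The share of gene counts on mitochondrial genes was 5.48% and 2.43% in control and 5.72% and 2.82% with lactate, so replicate 1 of each group was the higher, as it also was in the share of element counts. ESC markers were all detected, with a summed level of 5775 to 6182 counts per 1000000 gene counts (CPM) in the control and 6141 to 6980 CPM in the lactate libraries, and 3 of the 10 were higher and 1 lower at an unadjusted p-value under 0.05. The 10 MEF markers were also all detected, none at 0, and summed to 2966 to 3136 CPM in the control and 3470 to 3899 CPM in the lactate libraries. Fn1 made up most of that sum, and without it the others had 580 and 792 CPM in control and 583 and 628 CPM with lactate. Of the 10, none was higher and 1, Col3a1, was lower at an unadjusted p-value under 0.05 (log2 fold change −0.90, adjusted p = 0.110). Fn1 and Col3a1 were named after their values were seen. The part of feeder RNA in the results was not tested. In RNA from mixed cells, fewer cells of a type and less RNA per cell cannot be told apart.

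DNA transposons were a minor share of the RNA. They took 43802 and 41517 reads in the control libraries and 52642 and 46951 reads in the lactate libraries. This was 0.221% and 0.202% of all counts in control and 0.257% and 0.228% with lactate, without overlap between the groups. An exact two-sided permutation test of that difference gave p = 0.33, the smallest p-value that 2 libraries against 2 allow. Among element reads alone, DNA transposons held 2.64% ± 0.147 (SD, n = 2) in control and 2.78% ± 0.063 (SD, n = 2) in lactate, and here control replicate 2, at 2.74%, lay above lactate replicate 1, at 2.73% (exact permutation p = 0.667).

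Reads were concentrated in a few elements. The 10 rows with most reads held 56.7% of all DNA transposon reads, and the 31 rows with at least 1000 reads held 79.6%. The median row had 218 reads over the 4 libraries. No read at all was counted for 12 rows, and 24 rows had reads but too few to be tested, none with more than 34. The remaining 168 rows were tested. The 4 rows with names ending in _Mars, which mark elements of marsupials, held 1 read between them (chosen after their values were seen). Endings that may mark other groups, such as that of Tigger1a_Art with 90 reads, were not looked up. The labels as a whole were therefore not checked.

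The hAT group took 75.2% of DNA transposon reads, nearly all of it from hAT-Charlie with 69.8% of the total. TcMar-Tigger held 21.6%. Every other family was small, with 2.81% for hAT-Tip100, 1.62% for hAT-Blackjack, 1.164% for TcMar-Mariner, 0.994% for hAT, 0.931% for TcMar-Tc2, 0.428% for DNA, 0.242% for MULE-MuDR, 0.222% for PiggyBac, 0.108% for TcMar and 0.085% for MuDR. TcMar-Pogo has a single row, and it was at 0. These are shares of reads and not of copies, since neither copy numbers nor lengths of the elements were used.

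The total of all DNA transposons was 2529 and 2185 CPM in the control and 2827 and 2376 CPM in the lactate libraries. The CPM are counts scaled on the library's gene counts and TMM factor, so element reads do not enter the scale. The groups overlapped, with lactate replicate 2 below control replicate 1. The means were 2357 ± 243 CPM (SD, n = 2) in control and 2602 ± 319 CPM (SD, n = 2) in lactate, a difference of 10.4%. The log2 fold change was 0.14 with a standard error (SE) of 0.18 and a 95% confidence interval from −0.29 to 0.58, and the adjusted p-value from the quasi-likelihood test of edgeR, by the method of Benjamini and Hochberg, was 0.690. Without lactate replicate 1 the estimate was −0.016, and without control replicate 2 it was 0.035. Without control replicate 1 it was 0.23, and without lactate replicate 2 it was 0.26. Replicate 1 was the higher library in both groups, so the size and direction depend on which library is left out. With mitochondrial genes left out of the scaling, an alternative chosen after seeing the data, the estimate was 0.13.

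**Figure D1:**
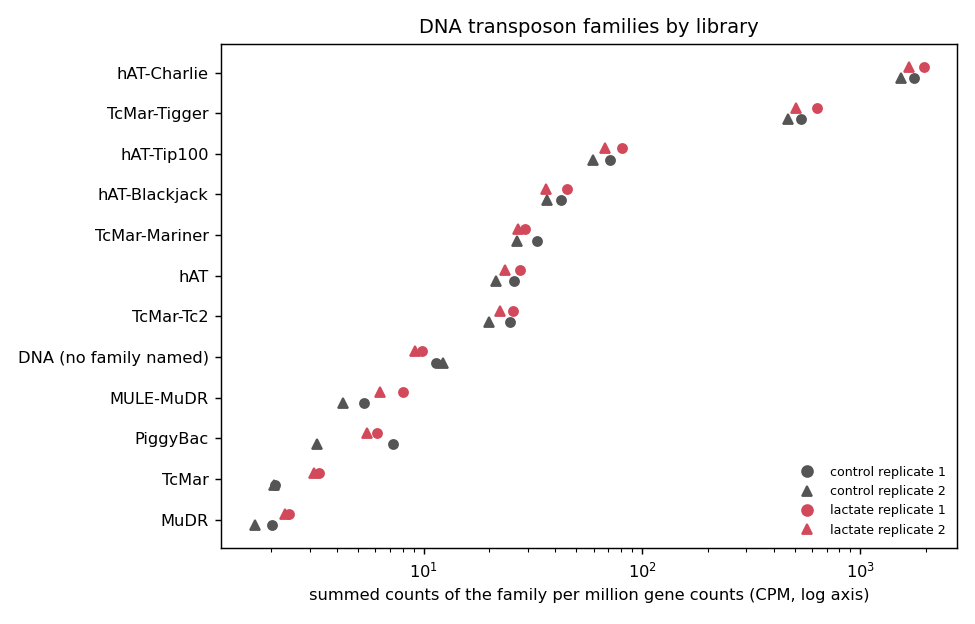
Total CPM of each DNA transposon family with reads, on a log axis, with 1 point per library (grey for the 2 control and red for the 2 lactate libraries, circles for replicate 1 and triangles for replicate 2). hAT-Charlie and TcMar-Tigger lie far above the other families, and the libraries of both groups overlap in both.

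The estimates of both large groups were small. The hAT group stood at 1908 and 1650 CPM in the control and 2109 and 1795 CPM in the lactate libraries, a log2 fold change of 0.13 (SE 0.17, adjusted p = 0.702, 95% interval −0.29 to 0.56). For the TcMar group the totals were 595 and 513 CPM against 692 and 558 CPM, a log2 fold change of 0.17 (SE 0.17, adjusted p = 0.597, 95% interval −0.24 to 0.59). In both, lactate replicate 2 lay between the control libraries, and without lactate replicate 1 the estimates were −0.015 for hAT and −0.017 for TcMar. The other DNA families together had 25.9 and 21.4 CPM in control and 26.4 and 23.3 CPM with lactate (log2 fold change 0.07, adjusted p = 0.853). When the libraries were scaled on element counts in place of gene counts, the hAT estimate was −0.00022 and that of the other DNA families −0.06. The DNA transposons are part of that scale, so a change shared by all elements would not show on it.

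The balance between hAT and TcMar was nearly the same in all libraries. For each TcMar read there were 3.21 and 3.21 hAT reads in control and 3.05 and 3.22 with lactate (exact permutation p = 1).

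Among single families, a pair of small ones had the largest estimates. TcMar, whose rows are DNA1_Mam, MER121 and a few near or at 0, had 36 and 39 reads in control and 62 and 62 reads with lactate. This gave 2.07 ± 0.019 CPM (SD, n = 2) and 3.23 ± 0.136 CPM (SD, n = 2), with both lactate libraries above both controls. The log2 fold change was 0.65 (SE 0.23, 95% interval 0.089 to 1.20), with an adjusted p = 0.170 in edgeR's quasi-likelihood test. MULE-MuDR, the Mutator-like family, had 92 and 81 reads in control and 150 and 125 with lactate, again without overlap. Its means were 4.79 ± 0.742 and 7.19 ± 1.22 CPM (SD, n = 2 each), with a log2 fold change of 0.59 (SE 0.23, 95% interval 0.025 to 1.15, adjusted p = 0.201). Neither family passed the adjusted threshold of 0.05.

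The Ricksha elements make up both Mutator-like families, and their 5 names are listed under MULE-MuDR and again under MuDR. Ricksha_0, Ricksha_a and Ricksha_c had 84, 8 and 335 reads under MULE-MuDR and 0 under MuDR. Ricksha had 152 reads under MuDR and 20 under MULE-MuDR, and Ricksha_b had 6 and 1. The Ricksha rows are named together after their values were seen. All 10 rows summed to 127 and 113 reads in control and 195 and 171 reads in lactate, or 6.64 ± 0.980 and 9.56 ± 1.29 CPM (SD, n = 2 each). The MuDR family alone had 35, 32, 45 and 46 reads, mostly from Ricksha, with a log2 fold change of 0.36 (adjusted p = 0.444). The most-read row of MULE-MuDR, Ricksha_c, had 78 and 57 reads in control and 124 and 76 reads with lactate, and its groups overlapped. In all, 7 names occur in 2 families, the others being MamRep137 and MER96B, which have nearly all of their reads in 1 of the 2 rows.

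The family called DNA was the only one of the 12 families with reads in which both lactate libraries lay below both controls. It had 11.4 and 12.2 CPM in control and 9.83 and 9.11 CPM with lactate, a log2 fold change of −0.32 (SE 0.17, adjusted p = 0.328). Most of its reads came from MER105, with 121 and 167 reads in control and 103 and 125 with lactate.

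The remaining families had estimates near 0 with overlapping groups. They were 0.13 for hAT-Charlie, 0.18 for hAT-Tip100, 0.05 for hAT-Blackjack, 0.11 for hAT, 0.19 for TcMar-Tigger, 0.10 for TcMar-Tc2, −0.10 for TcMar-Mariner and 0.16 for PiggyBac, with adjusted p-values from 0.555 to 0.904 in edgeR's quasi-likelihood test. On the element scale those of hAT, hAT-Blackjack and TcMar-Tc2 turned to −0.02, −0.09 and −0.03. PiggyBac was the least settled. Its libraries had 7.22 and 3.26 CPM in control and 6.12 and 5.52 CPM with lactate, and the estimate moved from −0.32 without control replicate 2 to 0.82 without control replicate 1.

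Across single elements, none of the 168 tested rows passed the call, an adjusted p-value below 0.05 and more than a 2-fold change, where 0.796% of all 19593 rows tested were called. None had an adjusted p-value under 0.05 either, against 0.847% of all rows, and DESeq2 gave 1 of 155, against 4.52% of all rows. At an unadjusted p-value under 0.05, 9 rows were higher with lactate (5.36% of the members, against 11.4% of all rows tested) and 1 was lower (0.595%, against 10.8%), where DESeq2 gave 1 and 0. Leaving out 1 library moved the count of 9 in both directions. The shares of all rows at that threshold were not computed with DESeq2 or without 1 library. Counts in those settings therefore cannot be read as a result about the members. No test compared the shares of the members with those of all rows.

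The estimates of the members leaned to one side. They were above 0 for 136 rows and below 0 for 32, so that 81.0% were above 0, against 52.2% of all rows tested and 75% of the other element rows. By class, the share above 0 was 94.3% of 35 SINE rows, 79.6% of 147 LINE rows and 72.0% of 558 LTR rows. The median log2 fold change of the members was 0.17, with the middle of the values from 0.03 to 0.33 (quartiles) and a range from −1.22 to 1.49. The median was 0.01 for genes and 0.13 for the 764 other element rows tested, with 0.15 for LINE, 0.13 for LTR and 0.07 for SINE rows, and no test of the difference between these classes was made. Both lactate libraries lay above both controls for 53 members (31.5%, against 27.1% of all rows), and both lay below for 8 (4.76%, against 24.9%). Among the other element rows these shares were 27.0% and 6.28%. Without lactate replicate 1 the median was −0.0016 with 50% of estimates above 0, and without control replicate 2 it was 0.038 with 56.1%. It was 0.31 with 87.6% without control replicate 1 and 0.33 with 82.4% without lactate replicate 2, so leaving out any 1 library moved the median by more than 1.5 times. On the element scale, of which the members are part, the median was 0.04 while that of genes moved to −0.12.

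**Figure D2:**
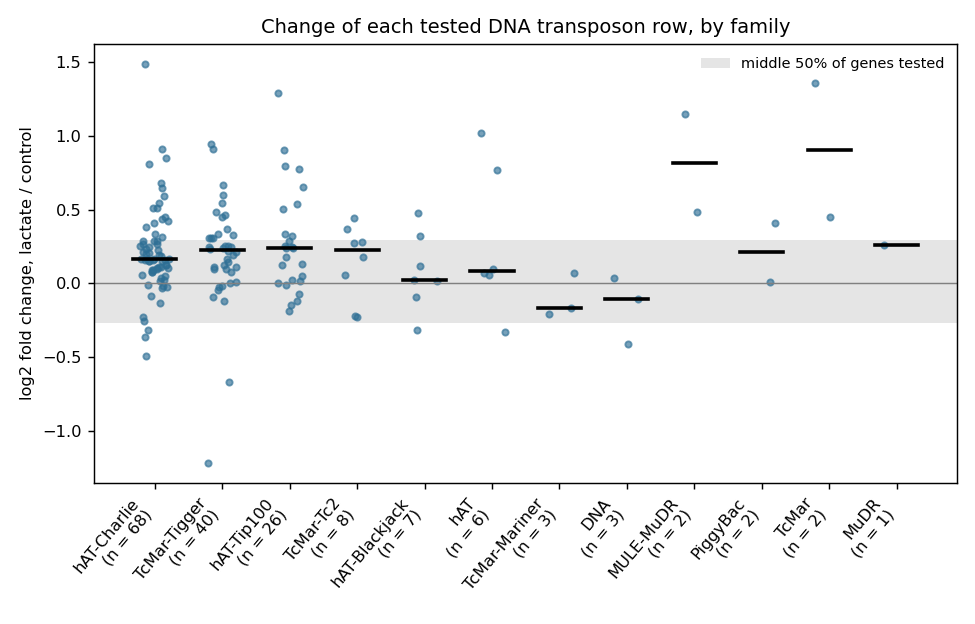
Log2 fold changes of lactate against control for single DNA transposon rows by family, with 1 point per tested row, a black bar at each family's median and a grey band over the middle of all tested genes, from −0.27 to 0.29. Most points lie above 0, and the widest are rows with few reads such as MER113B at 1.49 and Tigger1a_Art at −1.22.

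The lean was also present in rows with many reads. Of the 31 rows with at least 1000 reads, 28 had an estimate above 0 and the median was 0.16. The other rows of the table in that range of reads, mostly genes, had a median of −0.02. Other element rows were not set apart by reads, and over all reads their median was 0.13. With 300 to 999 reads the medians were 0.17 for 46 members and 0.04 for other rows, with 100 to 299 reads 0.16 for 52 members and 0.09, and under 100 reads 0.29 for 39 members and 0.14. These 39 were the tested ones of 75 members under 100 reads. A row could pass the filter through the lactate libraries alone, so their median cannot be taken as support for the lean. With no filter on low counts, the median of 192 members was 0.12, with 70.3% above 0. RNAs that stay in the nucleus, listed as a sign of unspliced RNA, had summed levels of 954 and 942 CPM in the control and 1130 and 1155 CPM in the lactate libraries. Of the 5 tested, 4 had an estimate above 0, the median was 0.23 and none had an unadjusted p-value under 0.05. Their part in the result was not tested.

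**Figure D3:**
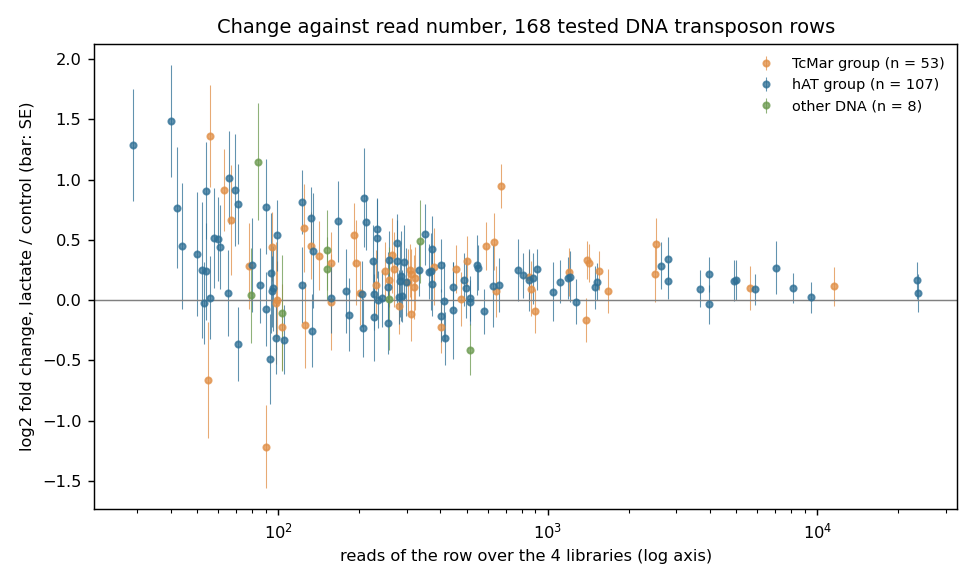
Log2 fold change of each tested DNA transposon row against its reads summed over the 4 libraries, on a log axis, with bars for the SE. The spread narrows as reads increase, and 28 of 31 rows with at least 1000 reads lie above 0.

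The lean was present in the rows of both large groups. Of 107 tested hAT rows, 88 had an estimate above 0, with a median of 0.16, and 6 (5.61%) were higher and 0 lower at an unadjusted p-value under 0.05. For 53 tested TcMar rows there were 42 above 0, a median of 0.22, and 3 higher (5.66%) and 1 lower (1.89%). The shares of all rows were the 11.4% and 10.8% given above. The 8 other tested rows had a median of 0.15. No test of a difference between the groups was made.

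The most abundant elements were the rodent pair URR1A and URR1B, both of hAT-Charlie, which together held 25.8% and 25.8% of DNA transposon reads in control and 25.02% and 25.5% with lactate. URR1A had 333 and 290 CPM in control and 353 and 296 CPM with lactate, a log2 fold change of 0.06. URR1B had 319 and 274 CPM in control and 355 and 309 CPM with lactate, a log2 fold change of 0.16. The groups overlapped for both. Their ratio is of reads within the same library, so the scale does not enter it. There were 1.045 and 1.059 reads of URR1A for each of URR1B in control and 0.995 and 0.959 with lactate. These did not overlap, and the exact permutation p of 0.33 is the smallest possible.

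Other elements named as rodent ones were also within the spread. RCHARR1, also of hAT-Charlie, had 98.0 and 72.9 CPM in control and 120.4 and 85.5 CPM with lactate (log2 fold change 0.27, adjusted p = 0.528). For RMER30 the estimate was −0.03, and on gene totals alone 0.03. MMAR1, the mouse mariner and the most-read row of TcMar-Mariner, had 21.9 and 17.4 CPM in control and 17.4 and 17.7 CPM with lactate (log2 fold change −0.17, adjusted p = 0.642).

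Next in reads came older elements shared by many mammals. MER2, a short element of TcMar-Tigger without a transposase gene, had 158 and 141 CPM in control and 180 and 143 CPM with lactate. MER20, a hAT-Charlie element, had the smallest log2 fold change of the 10 most-read rows (0.02), at 130 and 121 CPM in control and 129 and 126 CPM with lactate. MER5A, of the same family, had 105 and 106 CPM against 114 and 112 CPM. Together with MER5B, at 79.0 and 73.8 CPM against 82.9 and 79.7 CPM, it was without overlap between the groups, but the log2 fold changes of both were small, at 0.10 and 0.09.

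Tigger7 had 79.8 and 66.8 CPM in control and 89.1 and 67.9 CPM with lactate. Charlie1a had 68.4 and 57.5 CPM against 78.4 and 62.9 CPM, and MER58A 67.8 and 56.5 CPM against 76.9 and 61.9 CPM. For these 3 rows replicate 1 was the higher library in both groups, and lactate replicate 2 lay between the controls. The 10 most-read rows had log2 fold changes from 0.02 to 0.27 and adjusted p-values from 0.528 to 0.944. On the element scale those of URR1A, MER2, MER20, MER5A, MER5B and Tigger7 were below 0, between −0.11 and −0.03.

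In the small families, the most-read rows were MER53 of hAT (log2 fold change 0.07), MER63D of hAT-Blackjack (0.12), MamTip2 of hAT-Tip100 (0.18), Kanga1c of TcMar-Tc2 (−0.22), MER121 of TcMar (0.45), Looper of PiggyBac (0.01) and Ricksha of MuDR (0.26). Adjusted p-values were from 0.394 to 0.990 in edgeR's quasi-likelihood test. Looper had 5.02 and 1.95 CPM in the control libraries and 3.49 CPM in both lactate libraries, so its controls lay on either side.

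Tigger10, a TcMar-Tigger element, had the smallest p-value of the DNA transposons. It had 103 and 119 reads in the control and 230 and 221 reads in the lactate libraries. This was 6.10 ± 0.223 CPM (SD, n = 2) in control and 11.8 ± 0.826 CPM (SD, n = 2) in lactate, with no overlap. The log2 fold change was 0.95 (SE 0.18, 95% interval 0.50 to 1.39), with an adjusted p = 0.0642 in edgeR's quasi-likelihood test. It was past the adjusted threshold with DESeq2 (0.045) and with no filter on low counts (0.0196), which put 4.52% and 4.61% of all rows past it. Scaled on element counts, the adjusted p-value of the edgeR test was 0.190. Leaving out each library in turn gave log2 fold changes from 0.85 to 1.01. The total of TcMar-Tigger hardly showed the change of Tigger10, which made up 673 of 39899 reads of that family.

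The other rows with the smallest p-values on the higher side had few reads. Charlie16a, of hAT-Charlie, had 36 and 44 reads in control and 65 and 67 in lactate (log2 fold change 0.64, adjusted p = 0.178). Charlie17a had 21 and 22 reads against 39 and 41 (0.81, adjusted p = 0.151). For both, each lactate library lay well above each control.

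MERX of TcMar-Tigger had 10 and 11 reads against 18 and 24 (0.91), and MamRep4096 of hAT had 10 and 11 against 27 and 18 (1.02). DNA1_Mam of TcMar had 5 and 10 reads against 17 and 24 (1.36), MER113B of hAT-Charlie 3 and 7 against 15 and 15 (1.49), and MER97d of hAT-Tip100 3 and 5 against 10 and 11 (1.29). Their adjusted p-values were from 0.141 to 0.194 in edgeR's quasi-likelihood test. With so few reads, and rows that could enter the test through the lactate libraries alone, these estimates are loose, as the interval of MER113B from 0.37 to 2.60 shows.

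On the lower side, Tigger1a_Art of TcMar-Tigger was the only row with an unadjusted p-value under 0.05. It had 31 and 31 reads in control and 17 and 11 reads in lactate, a log2 fold change of −1.22 (SE 0.34, 95% interval −2.05 to −0.39, adjusted p = 0.120). With no filter on low counts it passed the call, at an adjusted p-value of 0.0439. The next were MER105 (−0.41), MER63A (−0.32), Tigger11a (−0.67), Charlie6 (−0.49), MamRep38 (−0.33), Charlie20a (−0.36) and Charlie13a (−0.32), with adjusted p-values from 0.317 to 0.588.

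**Figure D4:**
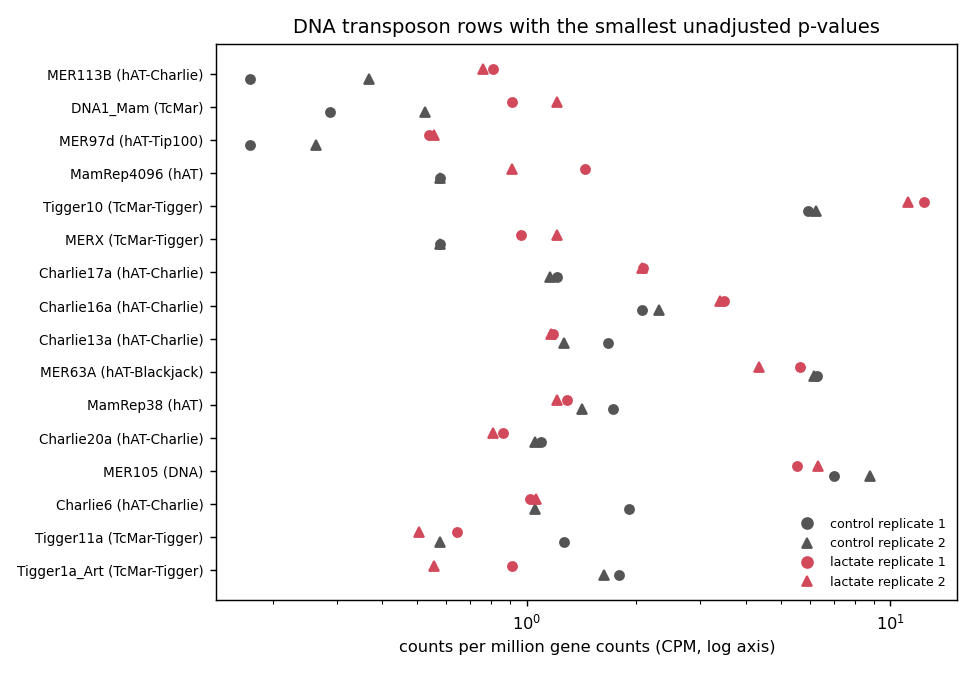
CPM in each library for the 8 DNA transposon rows with the smallest unadjusted p-values in each direction, on a log axis, with control in grey, lactate in red, circles for replicate 1 and triangles for replicate 2. Tigger10 has 5.95 and 6.26 CPM in the control and 12.4 and 11.2 CPM in the lactate libraries, and Tigger1a_Art is the row with the widest gap downward.

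Leaving out a library brought other rows past the adjusted threshold. They were Ricksha_0 of MULE-MuDR without lactate replicate 1 (log2 fold change 1.56, adjusted p = 0.0369) and Charlie13b of hAT-Charlie without lactate replicate 2 (1.26, adjusted p = 0.0161), both named after their values were seen. With all libraries, Ricksha_0 had 9 and 16 reads in control and 18 and 41 with lactate (adjusted p = 0.231), and Charlie13b had 43 and 29 against 89 and 48 (adjusted p = 0.286). In each case the lactate library that remained was the higher of the 2.

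Genes of the host that descend from DNA transposases were read from the same table by a list of 26 genes. These proteins keep parts of a transposase, in several of them the part that binds DNA, or come from an accessory protein of a transposon. Of the 26, 23 were tested. The Tigger-related gene Tigd4 and the antibody and T cell receptor recombinase gene Rag1 were at 0 in all libraries, and its partner Rag2 had 1 read. None was called or had an adjusted p-value under 0.05, while 3 were higher and 4 lower with lactate at an unadjusted p-value under 0.05 (13.0% and 17.4%, against 11.4% and 10.8% of all rows). Estimates were above 0 for 14 and below 0 for 9, with a median of 0.06 against 0.01 for all genes.

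By TPM, in which the reads of a gene are scaled to its length and to the library so that levels of genes can be compared, the most abundant gene of each kind was Thap4 for the P element, Pogz for pogo, Zbed4 for hAT, Harbi1 for Harbinger and Pgbd5 for piggyBac. Thap4 had 47.0 ± 6.63 TPM (SD, n = 2) in control and 45.3 ± 5.25 TPM in lactate. Pogz, a chromatin protein that binds HP1, had 36.5 ± 4.56 and 38.8 ± 9.51 TPM. Zbed4 was at 29.0 ± 0.453 and 30.6 ± 4.32 TPM, Harbi1 at 13.9 ± 1.80 and 19.4 ± 2.73 TPM, and Pgbd5 at 6.86 ± 0.0354 and 3.72 ± 0.651 TPM. The log2 fold changes in counts were 0.06 for Pogz, 0.04 for Zbed4 and 0.09 for Harbi1. TPM and counts did not always move alike. Harbi1 was higher with lactate in mean TPM but near level in counts. Thap4 was near level in mean TPM but lower in counts, as given below. Why they differ was not tested.

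Pgbd5 had the smallest p-value of the list. It had 242 and 274 reads in the control and 125 and 158 reads in the lactate libraries, a log2 fold change of −0.95 (SE 0.18, 95% interval −1.39 to −0.50, adjusted p = 0.0646). Both lactate libraries lay below both controls. Its adjusted p-value was 0.0217 with DESeq2, 0.00926 with no filter on low counts and 0.0778 with RSEM expected counts. Leaving out each library in turn gave log2 fold changes from −1.08 to −0.85.

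Pogk, which joins a pogo transposase to a KRAB domain, had 66 and 76 reads in control and 137 and 172 reads in lactate. Its log2 fold change was 1.04 (SE 0.21, 95% interval 0.54 to 1.54, adjusted p = 0.0665). The adjusted p-value of Pogk was 0.0162 with no filter on low counts and 0.0610 with DESeq2. Leaving out each library in turn gave log2 fold changes from 0.91 to 1.13. Thap2 had 119 and 76 reads against 229 and 197, a log2 fold change of 1.04 (SE 0.29, adjusted p = 0.119). The adjusted p-value of Thap2 was 0.0258 with no filter on low counts and 0.0635 with DESeq2. Its log2 fold changes without each library in turn were from 0.69 to 1.46. For both genes the groups did not overlap.

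The other genes at an unadjusted p-value under 0.05 were Thap1, a transcription factor of the THAP family (log2 fold change 0.48, adjusted p = 0.184), Naif1, the partner that carries Harbi1 into the nucleus (−0.51, adjusted p = 0.175), Thap11, a factor needed for ESC self-renewal (−0.41, adjusted p = 0.198), and Thap4 (−0.36, adjusted p = 0.217). In all 4 the groups did not overlap in CPM. Among the 23 tested genes, 5 had both lactate libraries above both controls and 6 had both below (21.7% and 26.1%, against 27.1% and 24.9% of all rows).

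**Figure D5:**
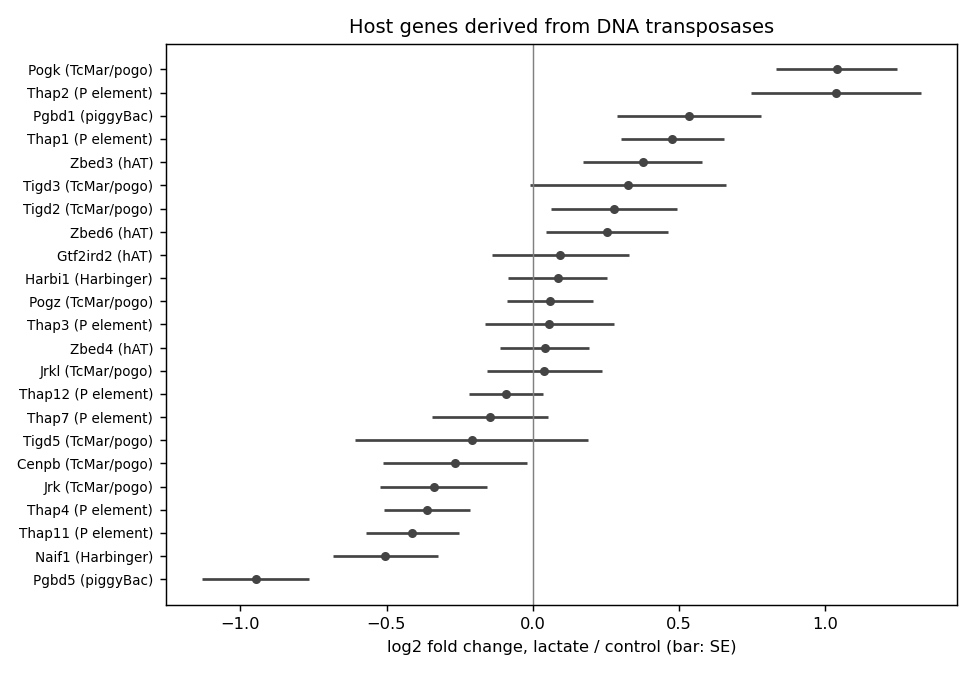
Log2 fold changes of lactate against control for the 23 tested host genes derived from DNA transposases, ordered by size, with the transposase family in brackets and bars for the SE. Pogk and Thap2 lie highest at 1.04 and Pgbd5 lowest at −0.95.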

How the data were processed

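Per the labels, total RNA was made into libraries with the Illumina TruSeq kit, and the submitters' processing notes name cutadapt 1.16, STAR, RSEM and mm10. The authors deposited 1 table of raw counts on genes and transposable elements and, for each library, RSEM expected counts, TPM and FPKM. The repeat annotation, the counting program and the treatment of reads with many mapping places or of strand are not given in the sources used here, and any of these would move reads between copies of like elements. The deposited TPM served to compare levels of genes, the expected counts, rounded, were an alternative for genes, and the FPKM values were not used. No column of per-sample values was left without a sample (0).

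The tests were run in edgeR 4.0.16, with limma 3.58.1, under R 4.3.3. Rows were filtered by filterByExpr, which left 19593, of which 18661 were genes. Library sizes and TMM factors (0.959, 0.996, 1.004 and 1.04) came from genes alone. The quasi-likelihood test compared lactate with control, with Benjamini-Hochberg adjustment over all rows tested, a call at an adjusted p-value under 0.05 and over 2-fold, and 95% intervals from the SE and the test's degrees of freedom. The common biological coefficient of variation was 15.9%. Totals were fitted as rows in place of their elements and called at an adjusted p-value under 0.05. Shares and ratios were compared by exact permutation. The scripts were tested on simulated data.

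The members and lists were chosen with earlier results of these data known. Named are all families, the most-read row of each and the 10 most-read of all, the 8 smallest p-values in each direction, rows with rodent names, and of the transposase-derived genes those with p under 0.05 and the highest TPM of each kind. Markers of ESCs and MEFs, nuclear RNAs and mitochondrial genes are given by list. Alternatives were DESeq2 1.42.0, other scalings (upper quartile, RLE, gene totals, TMM over genes and elements, element counts), no filter or at least 10 counts in every library, edgeR without its legacy form, a replicate block, the adjusted p-value alone, RSEM expected counts, each library left out and, chosen after the data were seen, scaling without mitochondrial genes.

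Libraries of a group were not one library deposited again. Their counts differed by more than sampling noise, with chi-square per degree of freedom of 1.90 in control and 2.64 in lactate over DNA transposons.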

Additional observations from a re-analysis of the deposited data

How the results depend on the processing

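With 2 libraries a group the tests see only large differences, and with few reads a row's estimate is loose. Of 317 alternative values of 22 main results, 274 were scored as unchanged. For fold changes and shares this meant the same direction and, where tested against the threshold, the same side of it. Counts had to stay within 1.5 times. The median log2 fold change of the members counted as unchanged when it moved by less than its SD between libraries of a group. A median that changed sign could therefore pass as unchanged. The number of DNA transposons called was 0 with all libraries and 1 with no filter on low counts, and at an adjusted p-value under 0.05 it was 1 with DESeq2 and 2 with no filter. Transposase-derived genes at that threshold numbered 1 with DESeq2 and 3 with no filter. These settings put 4.52% and 4.61% of all rows past that threshold, against 0.847% in the main test, and leaving out 1 library put between 0.588% and 6.40% past it. No filter also changes how many rows are tested, and otherwise the cause was not tested. Leaving out each library in turn, where a lone library is assumed to vary like the other group, gave 0 to 2 called DNA transposons, 0 to 2 at an adjusted p-value under 0.05, and for transposase-derived genes 0 to 2 in both counts. The 9 DNA transposons higher at an unadjusted p-value under 0.05 became 16 on gene totals alone, 2 on element counts and 41 with a replicate block. The shares of all rows at that threshold in these settings, or without 1 library, were not computed. These counts therefore cannot be read as a gain or loss of the members. With the block, 44.1% of all rows had an adjusted p-value under 0.05.

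Scaling on element counts, which moved the median of genes to −0.12, gave estimates of −0.00022 for the hAT group, −0.059 for other DNA, −0.019 for hAT, −0.090 for hAT-Blackjack, −0.027 for TcMar-Tc2, −0.084 for Looper, −0.028 for MER2, −0.11 for MER20, −0.070 for MER53, −0.031 for MER5A, −0.042 for MER5B, −0.022 for MER63D, −0.039 for Tigger7 and −0.076 for URR1A, all above 0 on the gene scale. Looper was also below 0 with DESeq2 (−0.013), without mitochondrial genes (−0.0022) and with no filter (−0.033), as was MER20 with no filter (−0.022), and Zbed4 with no filter (−0.0034) and with RSEM expected counts (−0.0082). RMER30 was 0.032 on gene totals alone.

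Without each library in turn, these estimates crossed 0. Totals ranged from −0.016 to 0.26 for all DNA transposons, −0.015 to 0.24 for the hAT group, −0.017 to 0.32 for the TcMar group, −0.067 to 0.20 for other DNA, −0.037 to 0.23 for hAT, −0.15 to 0.20 for hAT-Blackjack, −0.012 to 0.24 for hAT-Charlie, −0.32 to 0.82 for PiggyBac, −0.25 to 0.047 for TcMar-Mariner, −0.056 to 0.25 for TcMar-Tc2 and −0.010 to 0.34 for TcMar-Tigger. Single rows ranged from −0.028 to 0.31 for Charlie1a, −0.53 to 0.82 for Looper, −0.0084 to 0.37 for MamTip2, −0.090 to 0.27 for MER2, −0.037 to 0.059 for MER20, −0.26 to 0.32 for MER53, −0.033 to 0.30 for MER58A, −0.36 to 0.46 for MER63D, −0.027 to 0.49 for RCHARR1, −0.21 to 0.093 for RMER30, −0.14 to 0.28 for Tigger7 and −0.10 to 0.18 for URR1A, and genes from −0.030 to 0.16 for Harbi1, −0.099 to 0.17 for Pogz and −0.13 to 0.16 for Zbed4. Without lactate replicate 1 the PiggyBac total, MamTip2 and Harbi1 stayed above 0 and the others were below 0.

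The labels give both groups replicates 1 and 2 but do not say that same-numbered libraries belong together. Their deviations from the group means correlated at 0.34 over DNA transposons and 0.64 over genes. With the replicate number as a block, 44.1% of all rows had an adjusted p-value under 0.05. So did 28 of the 168 DNA transposons tested and 13 of the 23 transposase-derived genes tested. Of these, 5 DNA transposons and 2 genes were called, and the share of all rows called with the block was not computed. Totals past the threshold with the block were the TcMar group (0.17), DNA (−0.32), hAT-Tip100 (0.18), MULE-MuDR (0.59), TcMar (0.64) and TcMar-Tigger (0.18).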
